A study of Homo sapiens with 2 samples.

Results

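The genes described here are 38 genes of the endoplasmic reticulum (ER), taken by name as the chaperones, disulfide isomerases, translocon subunits, degradation components and unfolded protein sensors of that compartment. All 38 symbols matched 1 identifier each in a table of 58884 Ensembl genes. Their level was read in 2 RNA-seq libraries of TPC-1, an established line grown from a papillary carcinoma of the human thyroid, whose genome joins CCDC6 to RET. One library came from TPC-1 cells that received a control siRNA, and the other from TPC-1 cells that received an siRNA against XPR1, the phosphate exporter of human cells. Both libraries are of 1 cell line, and the sources used here do not give the number or sequence of the siRNAs or when cells were collected. With 1 library per group there is no replicate check and no test of the conditions, so higher and lower describe these libraries only.

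Proteins that enter the secretory pathway cross the ER membrane through the SEC61 translocon, fold with the help of BiP, calreticulin, calnexin and the disulfide isomerases, and are sent to the proteasome by ER-associated degradation (ERAD) when they fail to fold. Unfolded protein is sensed by IRE1 (gene ERN1), ATF6 and PERK (gene EIF2AK3). IRE1 splices the mRNA of XBP1 so that it encodes an active transcription factor, cleaved ATF6 is itself one, and PERK phosphorylates the initiation factor eIF2, which slows translation and favours that of ATF4. ATF6 and XBP1 act on ER stress elements in the promoters of chaperone and ERAD genes. The gene totals used here do not separate spliced from unspliced XBP1.

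The submitters deposited TPM, each gene's length-corrected share of the transcripts, so levels of different genes can be compared. Reads reckoned from these values came to about 15780000 (control) and 15150000 (XPR1 siRNA). XPR1 itself stood at 39.2 TPM with control siRNA against 5.31 TPM with its own. Among thyroid markers, PAX8 (588 and 409 TPM) and FOXE1 (11.1 and 13.7 TPM) were above 2 TPM, TG was 1.06 and 0.929 TPM, and NKX2-1, TSHR and SLC5A5 were at 0 in both libraries, where 3 reads would be 0.0717 to 0.233 TPM. Of 5 epithelial markers KRT8 and KRT18 were present (49.8 to 135.9 TPM in control and 37.01 to 94.0 TPM after XPR1 siRNA), KRT19 and CDH1 were at most 1.05 TPM, and EPCAM was at 0. The summed TPM of 5 leukocyte markers was 0.615 and 0.598, that of 5 endothelial markers 2.75 and 1.70, and that of 5 fibroblast markers 1.31 and 7.78, most of it COL1A1 (1.04 and 6.67 TPM), with DCN at 0. The part of these markers in the results was not tested. In RNA from many cells, fewer cells with a transcript and less of it per cell cannot be told apart.

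The ER genes held almost the same share of the transcripts in both libraries but were made up differently. Their summed level was 9064 TPM for control siRNA and 9007 TPM for XPR1 siRNA. HSPA5, which encodes BiP, made up 27.1% of that sum in control and 15.8% after XPR1 siRNA. CALR, which encodes the calcium-binding lectin chaperone calreticulin, made up 7.56% and 19.4%, and took the place of HSPA5 as the most abundant of the 38. XPR1 siRNA minus control, the level of HSPA5 differed by -1035 TPM and that of CALR by 1064 TPM.

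**Figure D1:**
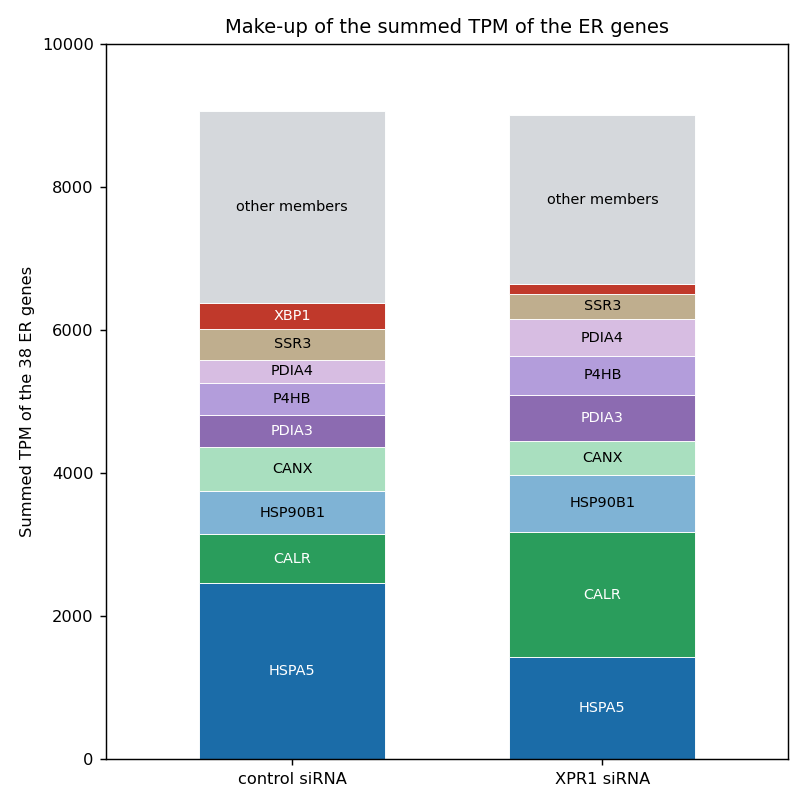
Summed TPM of the 38 ER genes in the control library (left bar) and the XPR1-siRNA library (right bar), with the part of each of 9 abundant genes in colour and the remaining genes in grey. The bars reach 9064 and 9007 TPM, while the HSPA5 part is smaller and the CALR part larger in the XPR1-siRNA library.

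Of the 38 genes, 37 had a mean of at least 1 TPM over the libraries and were compared, and DERL3 was not. Differences are of log2(TPM + 1), XPR1 siRNA minus control, and a gene was counted when that difference reached 1.5-fold. By this measure 5 of the 37 were lower (ERN1, XBP1, DNAJB9, HSPA5 and HYOU1), 2 were higher (CALR and PDIA4) and 30 lay within 1.5-fold. That is 13.5% lower and 5.41% higher, beside 16.6% and 21.7% of all 16319 genes compared. At 2-fold, 3 were lower (ERN1, XBP1 and DNAJB9) and 1, CALR, was higher, beside 8.57% and 10.4% of all genes. All 37 had a mean of at least 5 TPM, and among the 10861 genes above that level 13.1% were lower and 19.1% higher by 1.5-fold. Among protein-coding genes 11.1% were lower and 20.7% higher. The share of ER genes that were lower was thus near the background, between those of all genes and of protein-coding genes, and the share that were higher was below it. The median difference was -0.16 over the 37 genes and 0.05 over all genes. Of the 37, 22 were below 0 and 15 above, beside 7445 and 8874 of all 16319 genes.

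**Figure D2:**
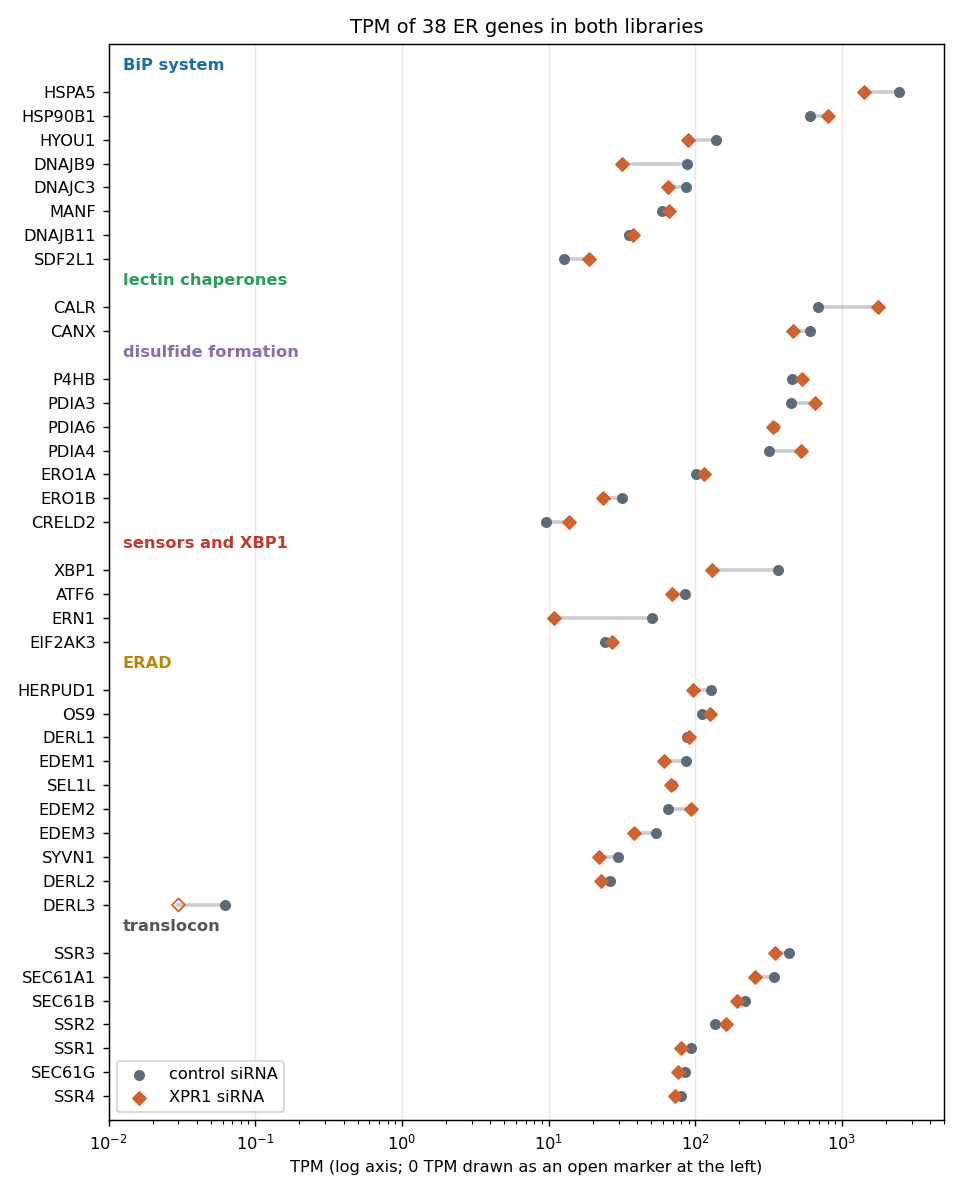
TPM of each of the 38 ER genes (log axis), by role, in the control library (grey circles) and the XPR1-siRNA library (orange diamonds). ERN1, XBP1 and DNAJB9 show the widest gaps to the left and CALR to the right; DERL3 is at 0.0624 and 0 TPM.

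Several of these genes carry the ER stress element (ERSE) before their start, the letters CCAAT, then any 9 bases, then CCACG. The sites are printed first, because genes that hold the same element lay on both sides of the comparison. Windows of 300 bases, from 250 before to 50 after each RefSeq start (GRCh38.p14), were searched on both strands, and 35 of the 38 genes have such a window. An exact ERSE was found for 8 of these 35 (22.9%), beside 25 of all 27305 genes in the table (0.0916%). By windows it was in 10 of 45 for the ER genes and in 27 of all 35116. ER stress elements are known from promoters of chaperone and ERAD genes, so such shares describe the list and are not a test. Each site follows in the orientation of the element with 6 bases on either side, and the capitals mark its fixed letters.
XBP1: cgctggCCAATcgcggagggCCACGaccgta
HSPA5: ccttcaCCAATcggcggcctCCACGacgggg
ERO1B: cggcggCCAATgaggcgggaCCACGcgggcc
CANX: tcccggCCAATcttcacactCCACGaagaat
PDIA6: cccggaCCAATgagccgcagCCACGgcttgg
HSP90B1, far site: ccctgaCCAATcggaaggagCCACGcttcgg
HSP90B1, near site: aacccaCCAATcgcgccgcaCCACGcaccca
CRELD2: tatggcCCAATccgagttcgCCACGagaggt
CALR: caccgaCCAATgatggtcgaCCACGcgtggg

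The genes with an ERSE are listed above from the lowest difference to the highest. XBP1 (-1.49) and HSPA5 (-0.79) were lower past 1.5-fold, CALR (1.35) was higher past it, and ERO1B (-0.40), CANX (-0.38), PDIA6 (-0.01), HSP90B1 (0.41) and CRELD2 (0.46) lay between. Their median was -0.20, with 5 below 0 and 3 above, beside 7445 and 8874 of all 16319 genes. The element begins 52 bases before the start in XBP1 and 66 in HSPA5, both on the strand of the gene. In CALR it begins 225 bases before the start and lies on the other strand, and in CRELD2 80 bases before, also on the other strand. HSP90B1 holds one on each strand, 194 and 89 bases before its start. CANX has 4 RefSeq starts, of which 3 have the element in their window.

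The promoters of HSPA5 and CALR are printed whole, since these were the most abundant of the 38 genes and differed in opposite directions. Both read 5′ to 3′ on the strand of the gene and end just before the RefSeq start, with the fixed letters of the exact ERSE in capitals. The HSPA5 stretch is chr9:125241344-125241593 of GRCh38.p14, minus strand, and the CALR stretch is chr19:12938359-12938608, plus strand, where the element reads in reverse complement.
HSPA5: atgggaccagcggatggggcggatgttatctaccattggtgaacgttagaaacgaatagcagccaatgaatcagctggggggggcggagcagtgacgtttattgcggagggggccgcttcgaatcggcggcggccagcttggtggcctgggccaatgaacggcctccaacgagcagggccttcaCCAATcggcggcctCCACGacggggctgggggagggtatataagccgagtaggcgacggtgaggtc
CALR: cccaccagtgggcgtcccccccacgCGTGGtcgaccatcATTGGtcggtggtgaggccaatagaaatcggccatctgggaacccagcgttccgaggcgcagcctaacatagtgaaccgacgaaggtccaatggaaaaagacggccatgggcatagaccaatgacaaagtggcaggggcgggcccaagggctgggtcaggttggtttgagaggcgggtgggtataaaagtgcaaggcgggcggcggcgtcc

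Of the 25 genes with an exact ERSE, 16 had a mean of at least 1 TPM. By 1.5-fold, 3 of the 16 were lower and 2 higher, beside 16.6% and 21.7% of all genes. The median of the 16 was 0.02, beside 0.05 over all genes. The lowest was FICD, which encodes the ER enzyme that attaches AMP to BiP and removes it. FICD was 17.8 TPM in the control library against 3.48 TPM, 5.10-fold lower (95% counting interval 3.88 to 6.88). It was named after its value was seen, as was SERP1, a small protein of the translocon, at 151.6 and 112.7 TPM. Both were lower, but of the 8 among the 16 that are not ER genes described here, 3 were below 0 and 5 above. The median of these 8 was 0.07, and the highest were TRIM5 (23.7 and 43.0 TPM) and TMEM120A (34.5 and 51.4 TPM). The SERP1 site also lies 77 bases before the start of EIF2A (70.4 and 72.9 TPM), on the strand of that gene. The CRELD2 site likewise lies 134 bases before the start of ALG12 (5.11 and 7.16 TPM). Both genes of each pair are among the 16. The sites of FICD and SERP1 are given for comparison with those above, 154 bases before the start in FICD and 232 in SERP1, there on the other strand.
FICD: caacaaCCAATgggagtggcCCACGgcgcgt
SERP1: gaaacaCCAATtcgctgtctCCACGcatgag

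A second form, ERSE-II (ATTGG, any 1 base, then CCACG), was found for HYOU1, which holds it at 2 places, HERPUD1 and SDF2L1, 8.57% of the 35 genes, beside 0.0696% of all genes. HYOU1 was lower past 1.5-fold, while HERPUD1 (-0.40) and SDF2L1 (0.53) lay within it on either side of 0. The UPRE core TGACGTGG, a site of XBP1 and ATF6, was found for HYOU1, SSR3 and SSR4, 8.57% of the 35, beside 0.927% of all genes, and in HYOU1 it overlaps one ERSE-II. The C/EBP-ATF element TGATGCAA, through which ATF4 and CHOP act, was found for HERPUD1 alone among the 35 (2.86%), beside 1.08% of all genes. With up to 1 mismatch, a search chosen after seeing the data, the ERSE was found for 14 of the 35 genes (40.0%) and 1.89% of all genes. A match describes letters and is not evidence of a bound factor, and ERN1 and DNAJB9, which were among the lowest, had none of the exact elements in their windows.

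**Figure D3:**
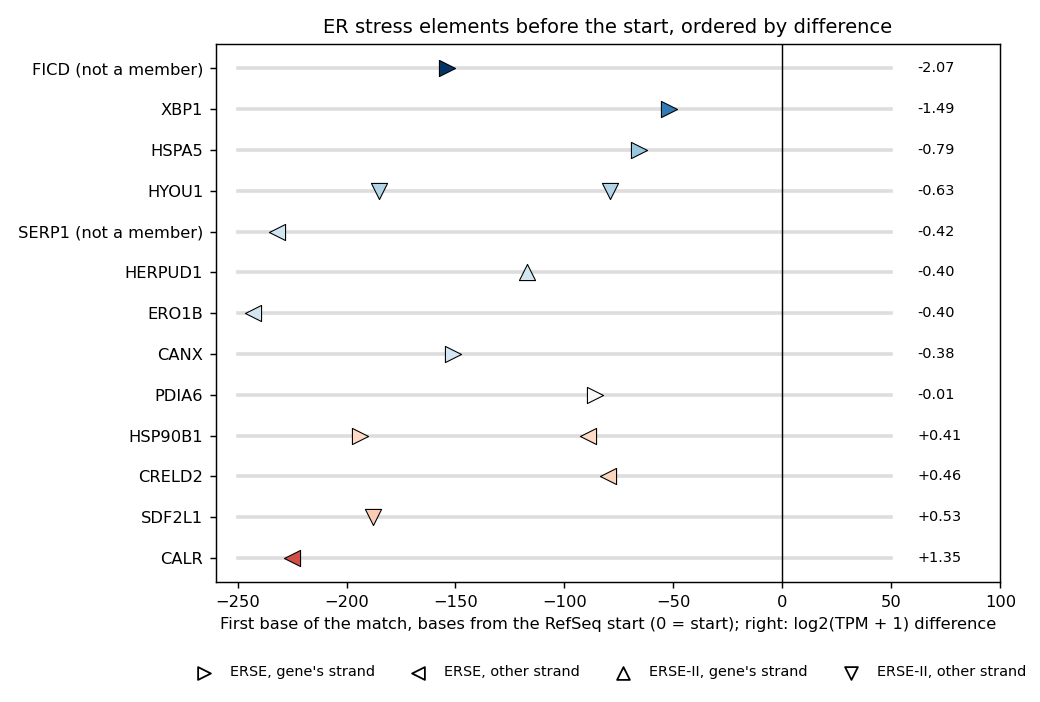
Position of exact ERSE (sideways triangles) and ERSE-II (triangles pointing up or down) matches of the ER genes described, with FICD and SERP1 added. Positions are in bases from the RefSeq start, 1 line per gene, ordered and coloured by the difference of log2(TPM + 1), which is printed at the right. Other genes with either element are not drawn. The genes drawn run from FICD at -2.07 to CALR at 1.35; for CANX only 1 of its starts is drawn.

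Among the sensors and XBP1, ERN1 and XBP1 were lower past 1.5-fold (50%, beside 16.6% of all genes) and the others lay within it. ERN1, which encodes the kinase and ribonuclease IRE1, was 50.5 TPM in control but 10.8 TPM in the other library. This was 4.66-fold lower (95% counting interval 4.22 to 5.15) and the 302nd lowest difference of 16319. XBP1 was 364 and 129 TPM, 2.82-fold lower (2.66 to 2.99). ATF6, the sensor that is cleaved in the Golgi, was 84.7 and 69.5 TPM, 1.22-fold lower (1.15 to 1.29). EIF2AK3 was 24.2 and 27.2 TPM, 1.13-fold higher (1.003 to 1.27). In control ERN1 was 2.09 times the level of EIF2AK3, and after XPR1 siRNA 0.398 times, a ratio within a library that scaling between libraries cannot move. ERN1 lies on chromosome 17 from 64039142 to 64130819 and XBP1 on chromosome 22 from 28794555 to 28800597, both on the minus strand of GRCh38, and neither shares exonic bases with another gene in GENCODE 29. The median of the 4 genes was -0.89.

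BiP and its partners were split, with 4 of 8 below 0 and 4 above, beside 7445 and 8874 of all 16319 genes. Of the 8, 3 were lower past 1.5-fold (37.5%, beside 16.6% of all genes) and none was higher past it. HSPA5 (chromosome 9, 125234853 to 125241330) was 2459 TPM in the control library against 1424 TPM, 1.73-fold lower (1.70 to 1.76). It ranked 39th of all genes in control and 58th after XPR1 siRNA. DNAJB9, a J-domain partner of BiP that also holds IRE1 in check, was 87.3 and 31.8 TPM, 2.74-fold lower (2.43 to 3.09). HYOU1, a nucleotide exchange factor for BiP, was 138.5 and 89.0 TPM, 1.56-fold lower. The level of HSPA5 relative to HYOU1 was 17.8 in control and 16.0 after XPR1 siRNA, so this pair kept nearly the same ratio.

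The remaining genes of the BiP system lay within 1.5-fold. DNAJC3, a J-domain partner that also inhibits PERK, was 86.3 and 64.9 TPM. DNAJB11, another J-domain partner, was 35.2 and 37.7 TPM, with an interval of its ratio that includes 1. SDF2L1, which binds DNAJB11, was 12.8 and 18.8 TPM, but with only 59 and 84 reads its 1.48-fold difference has an interval of 1.05 to 2.101. MANF, a secreted ER protein that binds BiP, was 59.2 and 66.6 TPM. HSP90B1, which encodes the ER member of the HSP90 family, GRP94, was higher, at 604 and 805 TPM (1.33-fold, 1.30 to 1.37). Relative to HSP90B1, HSPA5 stood at 4.07 times in control and 1.77 times after XPR1 siRNA.

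The lectin chaperones, which hold glycoproteins through their trimmed sugars, went apart. CALR (chromosome 19, 12938578 to 12944489) was 685 TPM in the control library against 1749 TPM, 2.55-fold higher (2.49 to 2.62). It had the 974th highest difference of 16319, and its rank among all genes was 137th in control and 44th after XPR1 siRNA. CANX, which encodes the membrane-bound relative calnexin, was 608 and 466 TPM, 1.31-fold lower (1.27 to 1.34). Relative to CANX, CALR stood at 1.13 times in control and 3.75 times after XPR1 siRNA.

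Of 7 genes of disulfide formation, 1 was past 1.5-fold, higher (14.3%, below the 21.7% of all genes). The median was 0.23, with 5 of 7 above 0, as were 8874 of all 16319 genes. PDIA4 was 319 and 525 TPM, 1.65-fold higher (1.59 to 1.71), the one past the threshold. PDIA3, the isomerase that works with calreticulin and calnexin, was 449.7 and 653 TPM, 1.45-fold higher (1.41 to 1.49). P4HB, the archetypal protein disulfide isomerase, was 456 and 534 TPM, and PDIA6 was 343 and 341 TPM, with an interval that includes a ratio of 1. Copies of PDIA3 named as pseudogenes were at most 5.13 TPM in either library. The oxidases that recharge the isomerases were on either side of 0, ERO1A at 101.4 and 115.6 TPM and ERO1B at 31.4 and 23.7 TPM. CRELD2, an ER stress-inducible secreted protein, was 9.68 and 13.7 TPM.

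**Figure D4:**
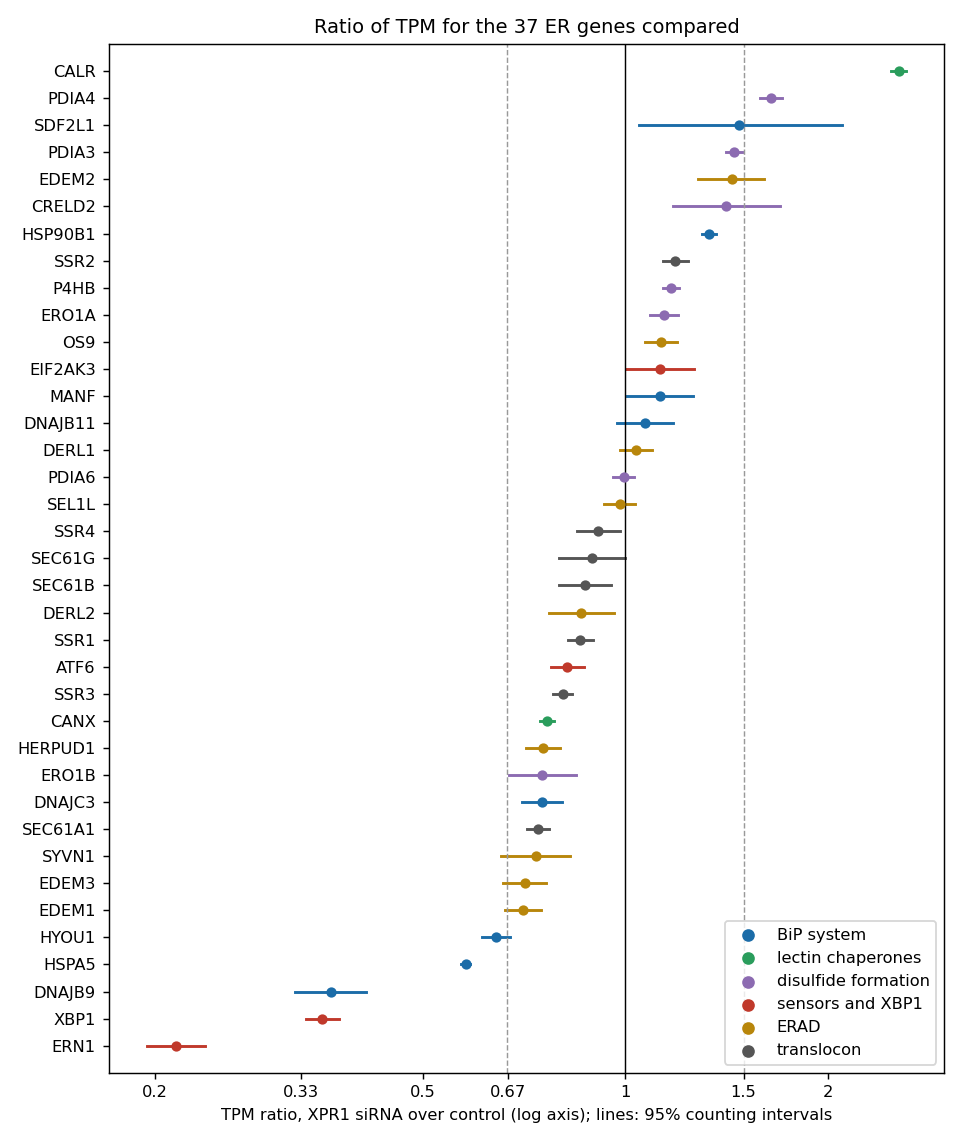
Ratio of TPM, XPR1 siRNA over control (log axis), for the 37 ER genes compared, coloured by role, with lines for the 95% counting intervals and dashed lines at 1.5-fold in either direction. ERN1, XBP1, DNAJB9, HSPA5 and HYOU1 lie left of the dashed lines and CALR and PDIA4 right of them.

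None of the 9 ERAD genes compared was past 1.5-fold, beside 16.6% lower and 21.7% higher of all genes. Of the 9, 6 were below 0, as were 7445 of all 16319 genes. HERPUD1, which organises the degradation complex, was 128 and 96.7 TPM, and SYVN1, its ubiquitin ligase HRD1, was 29.8 and 21.96 TPM. SEL1L, the partner of SYVN1, was 69.3 and 68.0 TPM, with an interval that includes a ratio of 1. The mannosidase-like EDEM proteins, which mark glycoproteins for degradation, differed among themselves. EDEM1 was 86.3 and 60.9 TPM (1.42-fold lower, 1.33 to 1.51) and EDEM3 54.3 and 38.5 TPM (1.41-fold lower, 1.31 to 1.52), while EDEM2 was 65.3 and 94.0 TPM (1.44-fold higher, 1.28 to 1.61). The lectin OS9 was 111.6 and 126 TPM. Of the derlins, membrane proteins of the export channel, DERL1 was 87.3 and 90.6 TPM, with an interval that includes a ratio of 1. DERL2 was 26.3 and 22.7 TPM (1.16-fold lower, 1.04 to 1.30). DERL3 was counted once in the control library and was at 0 in the other, where 3 reads would be 0.195 TPM, and it shares 77.0% of its exonic bases with SMARCB1.

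Translocon genes lay close together, with 6 of 7 below 0, none past 1.5-fold and a median of -0.20. Of all 16319 genes, 7445 were below 0, and past 1.5-fold 16.6% were lower and 21.7% higher. SEC61A1, the channel, was 345 and 256 TPM (1.35-fold lower, 1.30 to 1.40). Its small partners SEC61B (219.7 and 191.5 TPM) and SEC61G (85.8 and 76.6 TPM) were 1.15-fold and 1.12-fold lower. Of the 4 subunits of the translocon-associated protein complex, SSR3 was 436 and 352 TPM, SSR1 93.2 and 79.995 TPM, SSR4 80.1 and 73.1 TPM, and SSR2 was higher, at 137 and 163 TPM. SSR2 lay on the other side of 0 from the other subunits of that complex, all within 1.5-fold and with 1 library per group.

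Lists of 133 other ER genes, of which 127 were compared, had 9 lower and 14 higher by 1.5-fold (7.09% and 11.0%, below the 16.6% and 21.7% of all genes) and a median of 0.13. In each pair of values the control comes first. Exonic overlaps of these genes with neighbours were not examined. In each list, the 2 lowest and the 2 highest are named. Among redox enzymes and isomerases (2 lower and 2 higher of 15), TXNDC12 (12.1 and 6.79 TPM) and TMX3 (68.1 and 42.5 TPM) were lowest and the peroxidases GPX8 (64.1 and 135 TPM) and PRDX4 (136.9 and 216 TPM) highest. Of 16 J-domain proteins and folding factors of the ER, 1 was lower and 5 higher, with a median of 0.44. DNAJB14 (15.9 and 9.99 TPM) and SEC63 (53.2 and 41.3 TPM) were lowest there. CNPY4 (1.74 and 7.34 TPM) and the prolyl isomerase FKBP7 (7.69 and 21.9 TPM) were highest. In glycan trimming (1 lower and 1 higher of 8), CLGN, a relative of calnexin best known from testis, was 285 and 102 TPM, 2.79-fold lower (2.62 to 2.98), and UGGT2 was 20.1 and 13.5 TPM. The highest there were the mannosidase MAN1B1 (35.5 and 59.0 TPM) and the glucosidase MOGS (41.7 and 55.8 TPM).

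Beside the counts that follow, 16.6% of all genes were lower and 21.7% higher by 1.5-fold. In the wider ERAD machinery (1 lower and 2 higher of 27), SELENOS, a selenoprotein that binds VCP, was 56.2 and 24.0 TPM, 2.34-fold lower (2.07 to 2.65), and the conjugating enzyme UBE2J1 was 134.9 and 93.8 TPM. VCP, the ATPase that pulls proteins out of the membrane, was 251 and 456 TPM, 1.82-fold higher (1.76 to 1.88), and ERLIN1 126 and 191 TPM. For signal recognition and signal peptidase genes (3 lower and 1 higher of 33), SRP19 (6.31 and 3.23 TPM) and SEC11C (17.1 and 9.51 TPM) were lowest and SRP14 (138.8 and 238 TPM) and EMC10 (3.40 and 5.45 TPM) highest. Of 12 oligosaccharyltransferase genes only OST4 (188 and 354 TPM) was past 1.5-fold (8.33%, higher), and TUSC3 (42.6 and 59.5 TPM), KRTCAP2 (4.34 and 3.28 TPM) and RPN1 (322 and 277 TPM) were not. Among relatives and partners of the sensors (1 lower and 2 higher of 16), CREB3L2 (118.9 and 69.6 TPM) and TMBIM6 (592 and 427 TPM) were lowest and NFYB (11.6 and 21.1 TPM), a subunit of the factor that binds CCAAT, and CREB3L1 (17.4 and 29.7 TPM) highest.

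The ATF4 and CHOP arm, which PERK can drive, had 16 of 20 genes lower and 1 higher by 1.5-fold (80% and 5%, beside 16.6% and 21.7% of all genes) and a median of -1.28. ATF4 was 1184 and 544 TPM, DDIT3, which encodes CHOP, 67.4 and 5.84 TPM, PPP1R15A 235 and 28.4 TPM, TRIB3 245 and 37.4 TPM, and ATF3 32.0 and 6.83 TPM. The 4 genes that were not lower were BCL2L11 and the eIF2 kinases EIF2AK1 (91.2 and 126 TPM), EIF2AK2 (32.7 and 43.9 TPM) and EIF2AK4 (36.1 and 59.7 TPM), of which EIF2AK4 was past 1.5-fold. They were named after their values were seen. The list was chosen with earlier results of these data known, and whether it differs from the 38 ER genes was not tested.

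**Figure D5:**
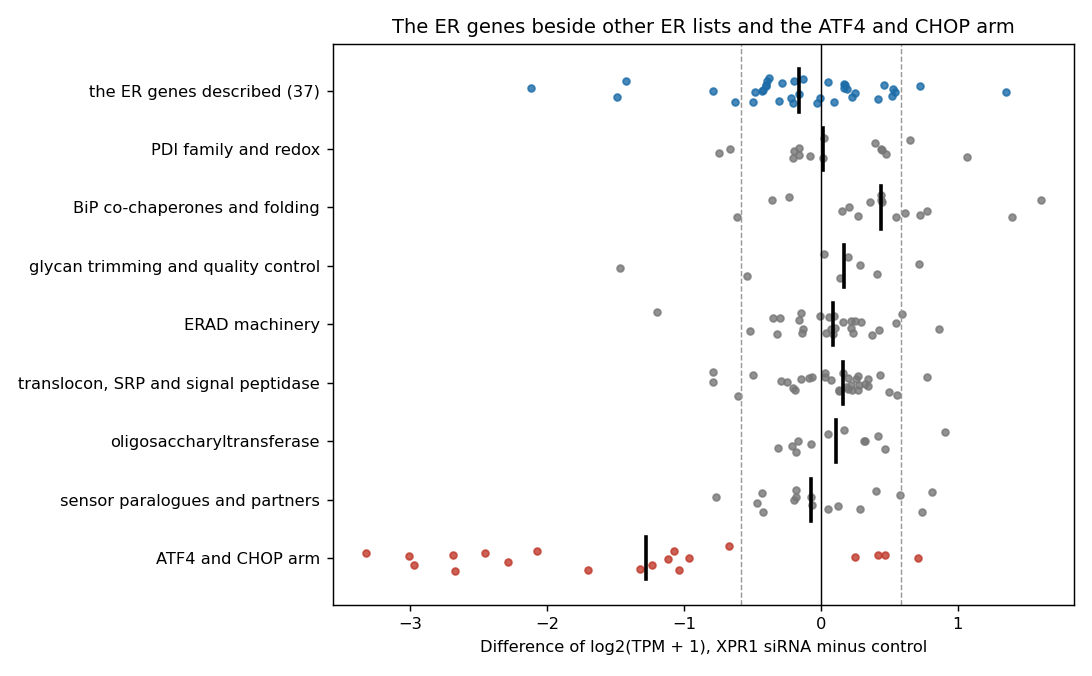
Difference of log2(TPM + 1), XPR1 siRNA minus control, for each gene with a mean of at least 1 TPM (points) and the median of each list (black bars), with dashed lines at 1.5-fold. The 37 ER genes and the other ER lists have medians from -0.16 to 0.44, and the ATF4 and CHOP arm one of -1.28. The list labelled BiP co-chaperones and folding also holds other J-domain proteins of the ER.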

How the data were processed

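The authors deposited TPM values for 58884 Ensembl genes, 1 column per library. Each column sums to 1000000, and no other scaling is recorded. Per the submitters' processing notes, FastQC, MultiQC, Trimmomatic 0.38, featureCounts 2.0.0 and GRCh38 were used, in no stated order. The sources used here do not give the aligner or annotation release. Per the labels' protocols the library kit was TruSeq RNA v2, which does not mark strand. Of the 38 genes, 22 share exonic bases with another gene, DERL3, PDIA6 and DNAJB11 over 20% of them. SYVN1 shares 10.1% with neighbours of up to 219 TPM, and SSR4 6.06% with IDH3G at 118 TPM (means of the libraries). What these overlaps add to the values was not tested.

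Symbols came from a table that matched 58472 identifiers, and exon lengths and coordinates from GENCODE 29, which held 58611. TPM times exonic length fell on multiples of 1 step per library, and among genes of up to 10 reads, 92.4% and 92.5% came out whole (tolerance 0.01). Only 16 of the 38 genes had whole reads in both libraries, so the other intervals are approximate. Clopper-Pearson intervals (95%, scipy 1.17.1) cover counting error only, and without molecular identifiers reads may be copies of 1 molecule.

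Genes whose mean reached 1 TPM were compared by log2(TPM + 1), which understates low genes, and counted at 1.5-fold. All 38 genes are named, with XPR1, 5 genes of the ATF4 arm and the 2 lowest and 2 highest of each other list. Members, lists and motifs were chosen with earlier results of these data known. Alternatives were pseudocounts of 0.1 and 5, median-of-ratios and upper-quartile scaling, removal of mitochondrial genes, no minimum, and 5 TPM. The scripts were tested on simulated data. Protein sequences were not used here. One marker gene is not reported here.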

Additional observations from a re-analysis of the deposited data

How the results depend on the processing

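The 5 lower and 2 higher ER genes were the same number under each of the 7 alternatives, and no gene changed its side of the 1.5-fold threshold under the 5 pseudocount, scaling and mitochondrial settings. The median of the 37 genes ran from -0.22 (median-of-ratios) to -0.15 (pseudocount of 5), and with no minimum, which adds DERL3, that of 38 genes was -0.15. The median of the lectin chaperones moved from 0.48 to 0.43 with median-of-ratios and 0.44 with upper-quartile scaling, and that of disulfide formation from 0.23 to 0.17 with median-of-ratios. These scalings multiply the XPR1-siRNA library by 0.962 and 0.969. With them 10 and 6 of the 37 genes moved by more than their counting interval reaches on either side. HSPA5 (-0.79 to -0.84 with median-of-ratios) and CALR (1.35 to 1.295) were among them. Only ERN1 moved so far with a pseudocount of 5 (-2.12 to -1.81). DERL1 turned from 0.05 to -0.003 with median-of-ratios, and was the only gene to change sign under those 5 settings. With a pseudocount of 5, 9.10% of all genes were lower and 12.7% higher by 1.5-fold, against 16.6% and 21.7%. The ERSE was found for 8 genes exactly and for 14 with 1 mismatch. No paired analysis was possible because there is a single library on each side, and no replicate could be left out. Depth limits SDF2L1 and DERL3 most.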

Other observations

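Genes around the ER that the text above does not cover were looked at in 3 lists, chosen after the values of the 38 genes were known. Of 17 genes of ER and luminal calcium handling compared, 7 were higher and 2 lower by 1.5-fold, 41.2% and 11.8%, beside 21.7% and 16.6% of all genes, with a median of 0.50. The 7 higher genes were RCN3, NUCB1, SDF4, NUCB2, RCN1, ORAI2 and ITPR1. ITPR1 reached a mean of 1 TPM only through the XPR1-siRNA library, where it was high, so the floor favoured its call as higher. RCN3 was 8.91 and 25.9 TPM (2.91-fold, 2.23 to 3.79), NUCB1 84.3 and 162 TPM, SDF4 75.1 and 136 TPM, NUCB2 10.8 and 17.8 TPM and RCN1 165 and 262 TPM. The calcium pump ATP2A2 was 120.3 and 116.6 TPM. The release channel ITPR3 (126 and 69.0 TPM) and the plasma membrane channel ORAI1 (48.7 and 29.3 TPM) were the 2 lower genes, while their relatives ITPR1 (0.606 and 2.17 TPM) and ORAI2 (8.11 and 15.4 TPM) were higher. The calcium-binding genes CALU (308 and 414 TPM), RCN2 (14.1 and 21.4 TPM), STIM1 (24.6 and 34.4 TPM) and STIM2 (3.79 and 5.76 TPM) lay within 1.5-fold on the log2(TPM + 1) scale.

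Of 19 genes of KDEL retrieval and ER exit, 3 were higher (15.8%, below the 21.7% of all genes) and none lower by 1.5-fold. The 3 were KDELR3, SEC13 (42.4 and 75.7 TPM) and SAR1A (74.5 and 127 TPM). The lowest differences were those of MCFD2 (195 and 136 TPM) and TMED10 (319 and 224 TPM). All 3 KDEL receptors, which return BiP and calreticulin to the ER, were above 0, as were 12 of the 19 and 8874 of all 16319 genes. KDELR3 was 75.9 and 162 TPM (2.14-fold, 1.94 to 2.36). KDELR1 (351 and 514 TPM) and KDELR2 (247 and 349 TPM) lay within 1.5-fold. Of 8 ER-phagy receptors only RETREG1 (12.5%, beside 16.6% of all genes) was past 1.5-fold, at 8.66 and 2.64 TPM, 3.28-fold lower (2.37 to 4.61).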
